A study of Mus musculus with 13 samples.

Results

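The genes described here are the 37 genes of the mouse mitochondrial chromosome, taken as every gene whose symbol starts with mt-, out of 49585 genes in the table. They comprise 13 mRNAs, 2 rRNAs and 22 tRNAs. They were measured in oocytes of female CD-1 mice at P5, whose ovaries were cultured overnight and γ-irradiated. The methods give 4 ovaries per time point. The 8 libraries of 0.5 Gy comprised 2 each at 0 h, 1 h and 4 h and 1 each at 2.5 h and 6 h, and the 5 libraries of 0.2 Gy comprised 1 for each of the same 5 times. The study's text takes 0 h as the sample before irradiation, so that no library is an unirradiated control of a later time. All ovaries were dissolved in trypsin and centrifuged to remove follicular cells. The labels assign replicate 1 at 0.5 Gy to a first generation, replicate 2 and the 2.5 h and 6 h libraries to a second, and all libraries of 0.2 Gy to the third, so that dose and generation cannot be told apart. They do not say what a generation was. Because the libraries came from bulk samples, fewer cells and less RNA per cell cannot be told apart.

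The mitochondrial chromosome is a small circle that is transcribed from both strands into long precursors. These are cut, mostly at the tRNAs, into mRNAs for subunits of the respiratory chain (complexes I, III and IV) and of the ATP synthase (complex V), and into the rRNAs of the mitochondrial ribosome. All other subunits are encoded in the nucleus. Oocytes hold many copies of this chromosome and pass their mitochondria on to the embryo. Stretches of mitochondrial DNA have also been inserted into nuclear chromosomes, where they are annotated as pseudogenes.

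The reads of several mitochondrial mRNAs were divided between chromosome M and such an insertion. On the minus strand of chromosome 1 (GRCm38), 7 pseudogenes between positions 24611535 and 24616197 matched the genes from mt-Co1 to mt-Nd4 on chromosome M. Gm28437 (chr1:24613189-24613971), the copy of mt-Co3 (subunit 3 of cytochrome c oxidase, chrM:8607-9390), was identical to it over 783 bases and lacked only its last base. Gm10925 (chr1:24613974-24614651), the copy of mt-Atp6 (a membrane subunit of the ATP synthase), was identical over 678 bases and lacked the last 3 bases. Gm28661 (mt-Co2, 681 bases) and Gm10222 (mt-Nd4l, 294 bases) were likewise identical and each lacked 3 bases, and Gm28439 matched the first 876 bases of mt-Nd4 without a mismatch. Gm28438, the copy of mt-Nd3 (a subunit of complex I), held 1 substitution, T3C, counted from 1 at the gene's 5′ end with the mitochondrial base first. Gm29216 covered positions 1054 to 1545 of mt-Co1, with 6 mismatches, all of them at or before position 1066.

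The ends of mt-Co3, mt-Atp6 and mt-Nd3 and of their copies are shown because they hold all the bases by which these transcripts differ, apart from the length of each. The sequences run 5′ to 3′ on the coding strand, from the GENCODE transcripts of GRCm38, and capitals mark the bases that only the mitochondrial gene holds or that differ between gene and copy.
mt-Co3, last bases: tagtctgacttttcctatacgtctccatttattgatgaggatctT
Gm28437, last bases: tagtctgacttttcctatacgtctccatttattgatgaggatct
mt-Atp6, last bases: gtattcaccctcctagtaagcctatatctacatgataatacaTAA
Gm10925, last bases: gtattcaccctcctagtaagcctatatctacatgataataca
mt-Nd3, first bases: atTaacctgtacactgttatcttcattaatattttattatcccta
Gm28438, first bases: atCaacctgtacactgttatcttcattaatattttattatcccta
mt-Nd3, last bases: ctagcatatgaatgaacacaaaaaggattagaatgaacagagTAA
Gm28438, last bases: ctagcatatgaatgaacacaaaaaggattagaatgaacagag
Reads of 30 bases carry no information on their source outside these marked bases. Counted as overlapping stretches of 30 bases, 100% of mt-Co2, 99.9% of mt-Co3, 99.5% of mt-Atp6, 98.9% of mt-Nd4l and 98.1% of mt-Nd3 also occurred in a nuclear transcript, against 64.8% of mt-Co1 and 62.8% of mt-Nd4. The other 6 mRNAs and both rRNAs shared at most 17.5%.

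The library totals lay between 15709549 and 30430104 estimated reads, lowest in replicate 2 of 0 h at 0.5 Gy. At these totals the 95% Wilson interval of a library's mitochondrial share was at most 0.0257 percentage points wide, which covers counting error only. Markers of oocytes summed to 3062 to 4931 CPM (a gene's counts scaled to a fixed library size after TMM, edgeR's trimmed mean normalization) in the 13 libraries, with none of the 11 markers at 0 throughout, and the 8 markers of granulosa cells, the follicular cells around the oocyte, to 1160 to 2097 CPM. Markers of stroma reached 1830 to 3576 CPM and haemoglobin and other red blood cell genes 856 to 6285 CPM, against 48.3 to 107 CPM for endothelium and 31.0 to 253 CPM for leukocytes, so that the libraries held RNA of cells other than oocytes.

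At 0.5 Gy, the mitochondrial genes took 5.18 and 7.28% of the reads on genes at 0 h and 4.83 and 5.06% at 1 h. They took 2.86% in the 2.5 h library, 5.16 and 5.42% in those of 4 h and 3.43% in that of 6 h. At 0.2 Gy they took 4.13, 5.26, 6.86, 5.73 and 5.54% in order of time. The lowest share was that of 2.5 h at 0.5 Gy, and at the same time point after 0.2 Gy the share was the highest of its dose. The chromosome 1 copies took a further 1.12 to 2.67%. With the copies' reads added to the mitochondrial genes, the shares at 0.5 Gy were 7.81 and 9.20% at 0 h and 7.36 and 6.77% at 1 h. They were 3.98% in the 2.5 h library, 7.83 and 7.52% in those of 4 h and 4.70% in that of 6 h. Those at 0.2 Gy were then 5.70, 7.21, 8.42, 7.53 and 6.69%. The 2.5 h and 6 h libraries of 0.5 Gy were again the lowest of the 13, and neither had a replicate.

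**Figure D1:**
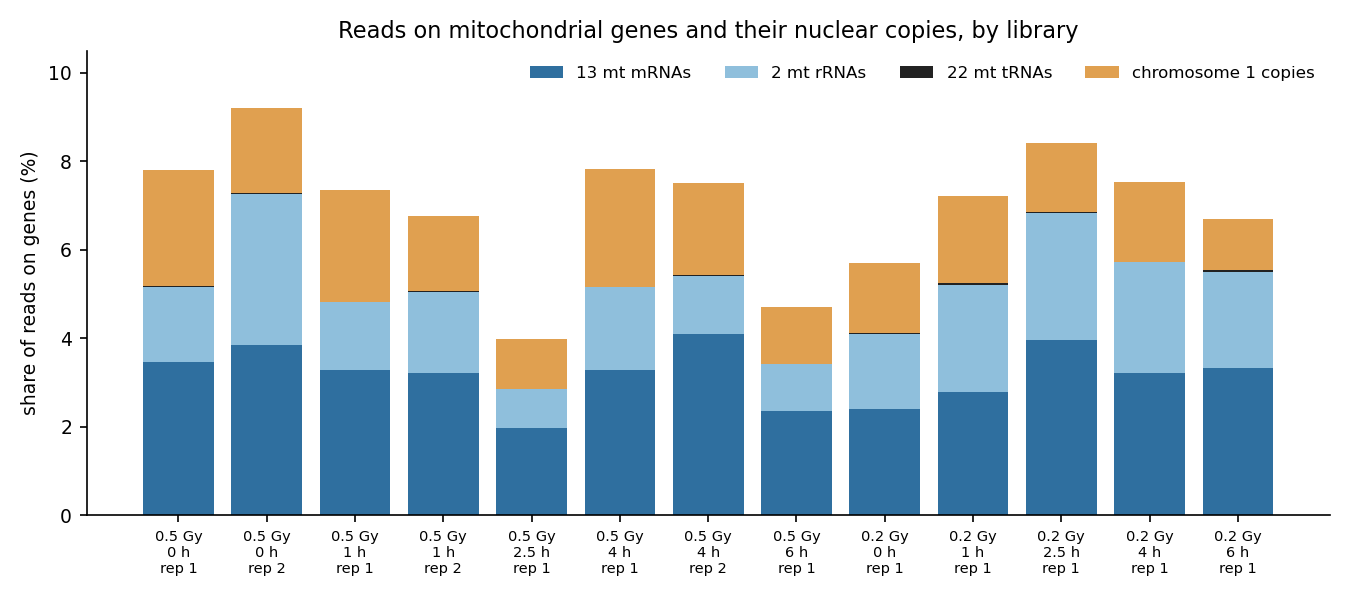
Share of the reads on genes (%, vertical axis) in each of the 13 libraries (horizontal axis), stacked into the 13 mt mRNAs, the 2 mt rRNAs, the 22 mt tRNAs and the chromosome 1 copies. The stacks reach 3.98% at 2.5 h and 4.70% at 6 h after 0.5 Gy, and between 5.70 and 9.20% in the other 11 libraries.

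Whether the mitochondrial share differed after irradiation with 0.5 Gy was tested with the 4 libraries of 2.5 h and later (late) against the 4 of 0 h and 1 h (early). The pooled times are different conditions rather than replicates. Nothing in the labels says that replicates came from separate cultures, so that p-values measure only the spread between these libraries. The share was 4.22% ± 1.27 (SD, n = 4) late and 5.59% ± 1.13 (SD, n = 4) early. The difference of -1.37 percentage points was within the spread between libraries (two-sided exact permutation test, p = 0.257, smallest possible p = 0.0286). With the copies added, the shares were 6.01% ± 1.95 (SD, n = 4) and 7.78% ± 1.03 (SD, n = 4), again with an exact p of 0.257. Of the late libraries, those of 2.5 h and 6 h lay below all early libraries, and both 4 h libraries lay within their range. When late (4 h and 6 h) and early libraries were compared within each dose, the mean of the 2 within-dose differences was 0.0137 percentage points (exact permutation within dose, n = 11, p = 0.995). It was -0.224 with the copies added (exact p = 0.762). As listed, the 2 differences had opposite signs, so a mean near 0 does not show that the share was unchanged within a dose. The difference was -0.917 percentage points at 0.5 Gy. At 0.2 Gy both late libraries (5.73 and 5.54%) lay above both early ones (4.13 and 5.26%). The 5 libraries of 0.2 Gy held 5.50% ± 0.983 (SD) and the 8 of 0.5 Gy 4.90% ± 1.33 (SD), which did not differ beyond the spread (exact permutation test, p = 0.412).

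The division of reads between a mitochondrial gene and its copy varied between the libraries. Of the reads of mt-Co3 and Gm28437, mt-Co3 was listed with 55.2, 49.4 and 51.9% in the first-generation libraries of 0, 1 and 4 h. In the second generation, which covers all 5 times, it was listed, in order of time, with 84.1, 78.4, 81.1, 87.6 and 85.5%. The ranges of these 2 generations did not overlap. In the third generation (0.2 Gy), its part was 55.7, 52.7, 93.6, 77.7 and 97.1% in order of time. For mt-Atp6, the first generation ranged from 12.8 to 14.1%, the second from 21.6 to 26.5% and the third from 13.3 to 38.4%. For mt-Co2 (subunit 2 of cytochrome c oxidase), these ranges were 11.2 to 12.7%, 17.7 to 24.0% and 15.7 to 42.3%. For mt-Co3, mt-Atp6, mt-Co2 and mt-Nd3, replicate 2 was listed with a larger part than replicate 1 at 3 of 3 time points, while mt-Co1 and mt-Nd4l showed this order at 1 of 3. The reads of mt-Co1, of which Gm29216 covers only positions 1054 to 1545, were listed for the gene at 53.3 to 63.7% in all libraries. Gm28439, the copy of part of mt-Nd4, was listed at 0 in every library.

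**Figure D2:**
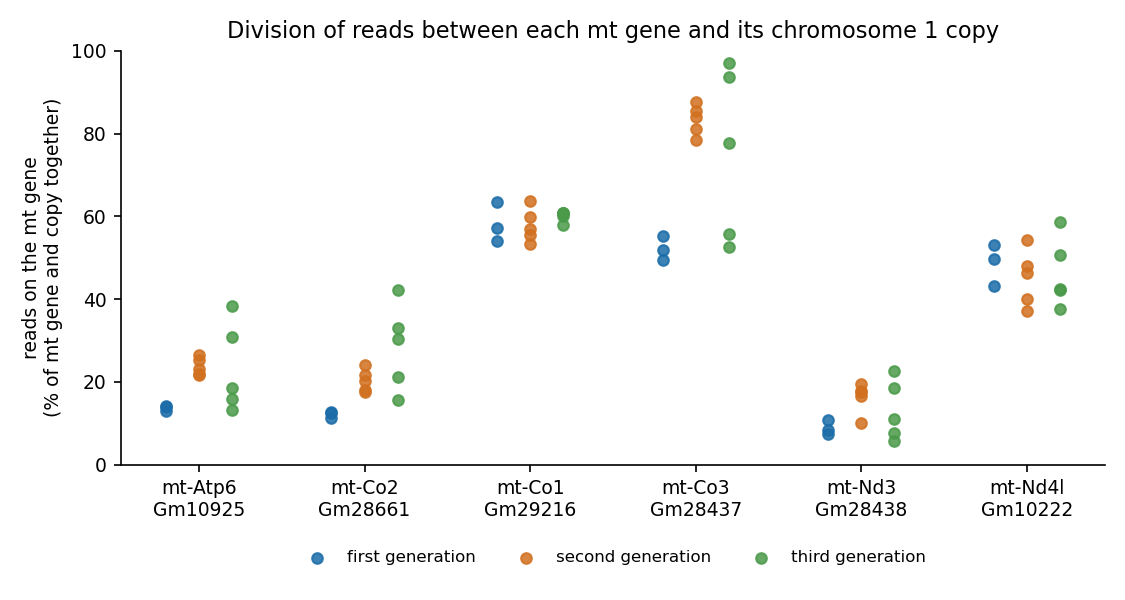
Reads listed for the mt gene as a percentage of those of the gene and its chromosome 1 copy together (vertical axis), for 6 pairs (horizontal axis); each point is a library, coloured by generation. First-generation points lie below all second-generation points for mt-Atp6, mt-Co2 and mt-Co3, while the mt-Co1 points stay within 53.3 to 63.7%.

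The balance among the subunits depended on whether the reads of the copies were counted. As listed, mt-Co2 held 2.21 to 6.86% of the mitochondrial mRNA reads, a 3.11-fold range with a coefficient of variation (CV) of 36.9% over the 13 libraries. With the copy added it held 10.6 to 12.1%, and its CV was 3.67%. The CV of mt-Atp6 was 26.2% as listed and 3.76% with its copy, and that of mt-Nd3 38.6 and 15.04%. Over the 13 mRNAs, the median CV was 11.5% as listed and 9.34% with the copies, and it was mt-Nd4l that then varied most, with a CV of 21.6%. Grouped by complex, the ATP synthase genes mt-Atp6 and mt-Atp8 held 6.78 to 11.5% of the mRNA reads as listed, but 16.9 to 19.2% with the copies. The 7 complex I genes held 26.5 to 32.9% as listed and 17.2 to 22.7% with the copies. The 3 cytochrome c oxidase genes held 40.3 to 50.1% and 49.96 to 55.3%, and mt-Cytb, the only mitochondrial subunit of complex III, 13.1 to 19.0% and 9.30 to 10.9%.

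**Figure D3:**
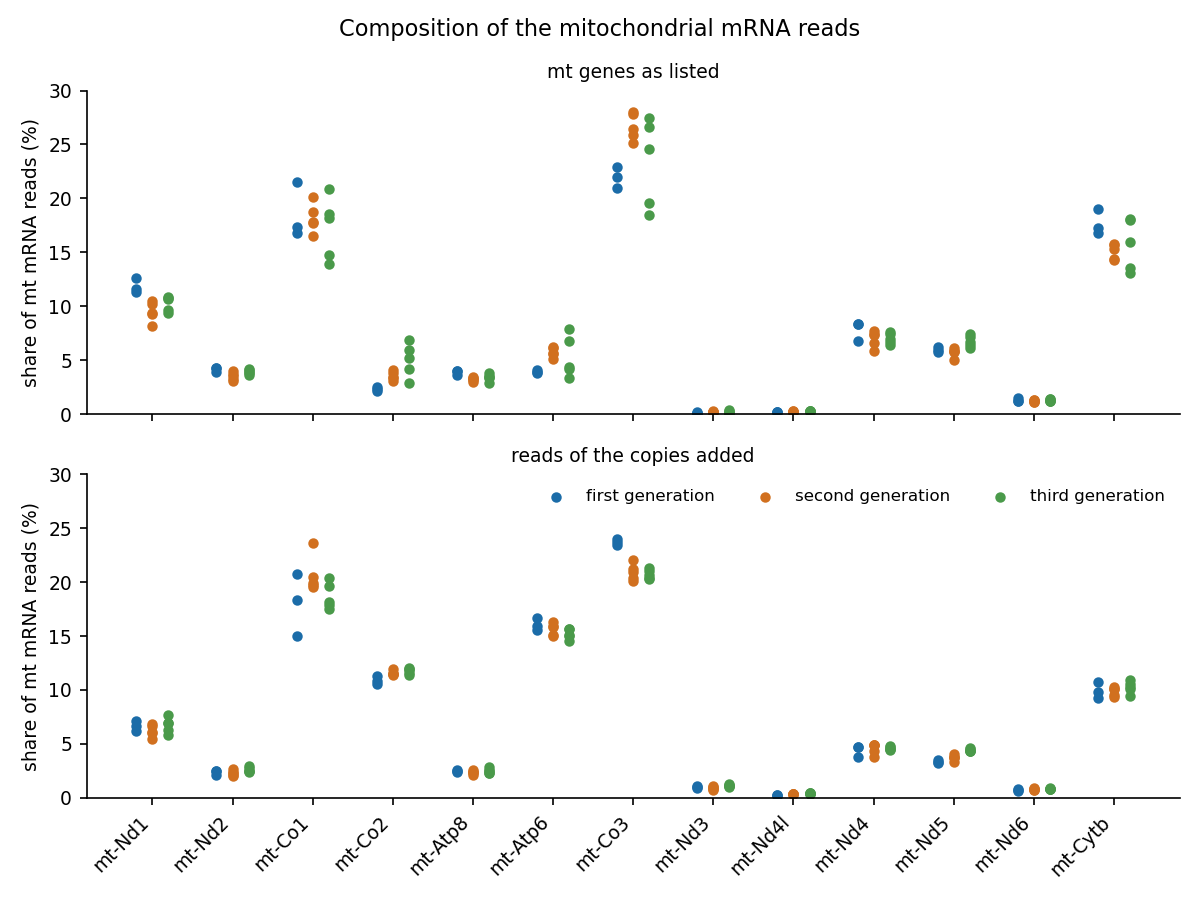
Share of the mitochondrial mRNA reads (%, vertical axis) held by each of the 13 mRNAs (horizontal axis) as listed (upper panel) and with the reads of the copies added (lower panel); each point is a library, coloured by generation. The mt-Co2 points spread over 2.21 to 6.86% in the upper panel and lie within 10.6 to 12.1% in the lower.

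No complex passed the test for a different share of mRNA reads in late and early libraries of 0.5 Gy. With 4 against 4 libraries, the smallest possible exact p was 0.0286. After adjustment over the 4 complexes, 1 complex alone could therefore not pass. With the copies added, complex I took 18.2% ± 0.771 (SD, n = 4) late and 19.6% ± 0.627 (SD, n = 4) early, the difference closest to the threshold (exact permutation test, p = 0.0571, adjusted over the 4 complexes 0.229). As listed, these values were 27.8% ± 1.28 and 30.3% ± 2.98 (SD, n = 4 each, exact p = 0.257). The other 3 complexes had exact p-values of 0.171 to 0.429 as listed and of 0.143 to 0.857 with the copies. The late minus early difference of complex V was 0.706 percentage points as listed and -0.117 with its copy, both within the spread.

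Levels of different genes were compared as RPKM, reads per kilobase of annotated length scaled to the library's reads on genes, with the copies added. The order of the means was mt-Co3, mt-Atp6, mt-Rnr2, mt-Co2, mt-Co1, mt-Atp8, mt-Cytb, mt-Nd1, mt-Rnr1, mt-Nd4, mt-Nd3, mt-Nd2, mt-Nd5, mt-Nd6 and mt-Nd4l. It ran from 13874 ± 3403 (SD, n = 13) RPKM for mt-Co3 down to 606 ± 148 for mt-Nd4l. mt-Co3 was above mt-Atp6 and mt-Co2 above mt-Co1 in 13 of 13 libraries. The mt-Atp6 level exceeded that of mt-Rnr2, the large ribosomal RNA, in only 7 of 13, and mt-Co1 that of mt-Atp8 in 9 of 13, so that these neighbours did not differ beyond their spread, like mt-Nd2 and mt-Nd5 (9 of 13). As listed, the order was led by mt-Rnr2, mt-Co3 and mt-Atp8, and mt-Nd3 came last with 195 ± 96.5 (SD, n = 13). mt-Atp8 and mt-Atp6 overlap by 43 bases and mt-Nd4l and mt-Nd4 by 7, and reads in the overlaps were divided by salmon. With the copies added, the means of all complex I mRNAs lay below those of the other complexes on this scale. Among them was mt-Nd6, the sole mRNA gene annotated on the minus strand (chrM:13552-14070), at 783 ± 168 (SD, n = 13). As listed, mt-Nd1 (3431 RPKM) lay above mt-Atp6 (2436 RPKM) and mt-Co2 (1791 RPKM). The place of mt-Nd4l depends on the length used. The deposited TPM divide by salmon's effective lengths, with medians of 51.7 bases for mt-Nd4l (297 annotated) and 125 for mt-Nd3 (348). On TPM as listed, mt-Nd4l lay above mt-Nd5 in every library.

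Of these 15 genes, mt-Rnr2 varied most on this scale, with a CV of 39.0%. It stood at 9526 and 19989 RPKM at 0 h of 0.5 Gy, 8640 and 10325 at 1 h. The 2.5 h library had 4756, those of 4 h had 10447 and 7178, and that of 6 h had 5875. Its level at 0 h differed by more than a factor of 2 between the replicates, and replicate 2 was the highest of all 13 libraries. mt-Rnr1, the small ribosomal RNA, stood at 1967 and 2526 in the same 0 h libraries. The ratio of mt-Rnr2 to mt-Rnr1 reads was 13.1 in replicate 2 of 0 h and 6.18 to 10.9 in the other libraries. The same library also held the highest sum of the leukocyte markers (253 CPM, against 31.0 to 82.4 CPM in the others). S100a8 (130 CPM) and S100a9 (49.0 CPM) made up most of it. Ptprc (7.73 CPM) and Lyz2 (54.6 CPM) lay within the range of the other libraries. Adgre1 (11.4 CPM) lay above that range and Cd68 (0.264 CPM) below it. The part of leukocytes in the rRNA values was not tested. Together the rRNAs took 30.3% ± 4.94 (SD, n = 4) of the mitochondrial reads in the late libraries of 0.5 Gy and 36.8% ± 6.91 (SD, n = 4) in the early ones, within the spread (exact permutation test, p = 0.171).

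Over time, most of the 13 mRNAs and 2 rRNAs were lowest in the 2.5 h and 6 h libraries of 0.5 Gy. With the copies added, the 2.5 h library was among the lowest 2 of the 13 libraries for 15 of the 15 genes and the 6 h library for 13 of 15, against 12 and 9 of 15 as listed. The highest 2 places were spread over 6 libraries, none of which held them for more than 7 of the 15 genes with the copies added. Relative to the 0 h mean of 0.5 Gy, the median over the 15 genes was 52.9% at 2.5 h, with a range from 32.2% (mt-Rnr2) to 61.3% (mt-Nd4l). At 6 h it was 57.1%, with a range from 39.8% (mt-Rnr2) to 75.9% (mt-Co1). In between, both 4 h libraries had medians of 96.0 and 98.8%. Those at 1 h were 95.3 and 85.3%. After 0.2 Gy, relative to its single 0 h library, the medians of the later libraries were 118, 141, 123 and 118% in order of time. All 15 genes were above 0 h in the 1 h, 2.5 h and 4 h libraries, and 1 (mt-Rnr1, 99.5%) was below it at 6 h. The median of the Pearson correlations between the log2 CPM of these genes over the 13 libraries was 0.697 as listed (range 0.187 to 0.960) and 0.869 with the copies (range 0.426 to 0.991, 105 gene pairs, given as a description, since all genes share each library's composition). In the 2.5 h and 6 h libraries of 0.5 Gy, the oocyte markers summed to 4147 and 4429 CPM and those of granulosa cells to 1550 and 1767 CPM, within the ranges of the early libraries (3622 to 4931 and 1262 to 1983 CPM). The red blood cell genes summed to 2966 and 2706 CPM there, and to 6007 and 6285 CPM at 4 h, against 2383 to 3525 CPM in the early libraries. In the 2.5 h library, the endothelial markers (48.3 CPM) and the leukocyte markers (39.1 CPM) lay below all early libraries (69.4 to 107 and 49.3 to 253 CPM), while the 6 h library, with 92.5 and 64.7 CPM, lay within these ranges. The part of these cells in the mitochondrial values was not tested. At 2.5 h of 0.2 Gy, where the mitochondrial share was highest for this dose, the red blood cell genes summed to 856 CPM, the lowest of the 13 libraries.

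**Figure D4:**
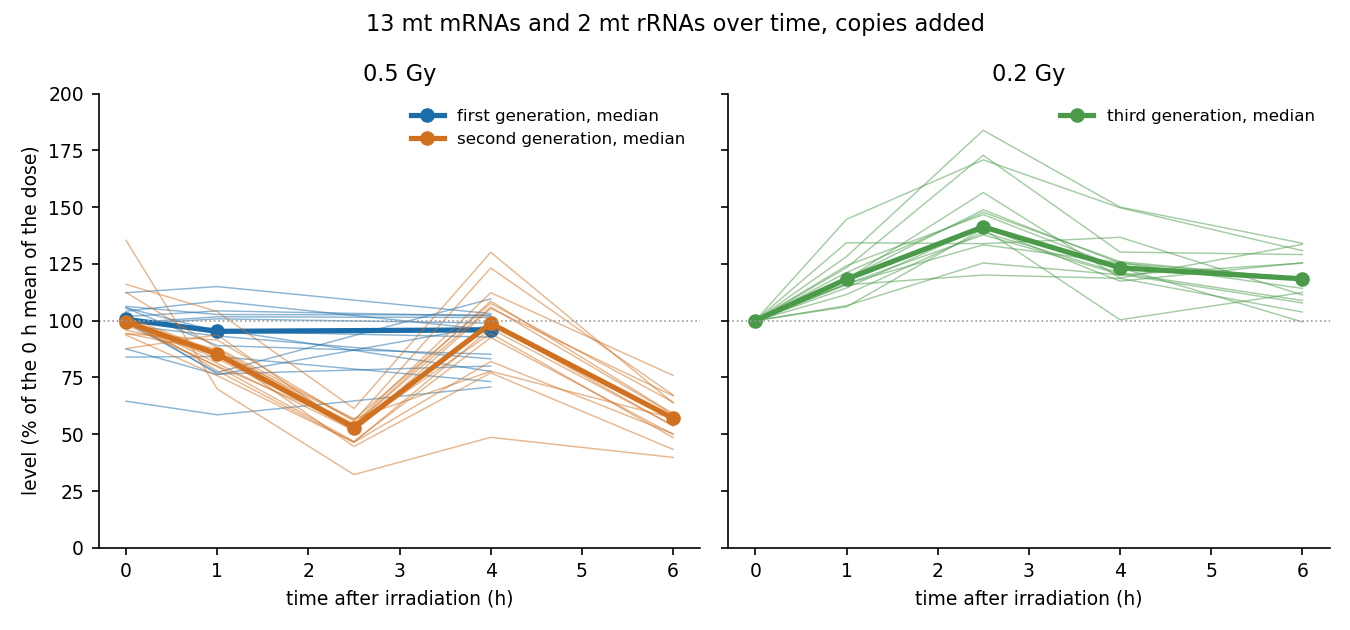
Level of each of the 13 mt mRNAs and 2 mt rRNAs (thin lines) and their median (thick lines), as a percentage of the 0 h mean of the dose (vertical axis), against time after irradiation in hours (horizontal axis), with the copies added; 0.5 Gy left, 0.2 Gy right, coloured by generation. The second-generation median goes through 52.9, 98.8 and 57.1% from 2.5 to 6 h, whereas the 0.2 Gy median is 141% at 2.5 h.

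No mitochondrial gene passed the edgeR test at any time point. Nor did any other gene that passed the filter on low counts, so in this fit the outcome is not particular to the mitochondrial genes. With edgeR's quasi-likelihood test over all genes, calls required an adjusted p (Benjamini-Hochberg) under 0.05 together with a fold change over 2. Against 0 h, 0% of the 28468 genes tested were called at 1, 2.5, 4 or 6 h, and 0 of the 32 mitochondrial genes that passed the filter on low counts. At these times, 0, 12, 0 and 9 of the 32 had an unadjusted p under 0.05. At 1 h and 4 h, DESeq2's Wald test called 0 mitochondrial genes as well. Of all 46404 genes, it called 8 higher and 12 lower at 1 h, and 94 and 31 at 4 h. At 2.5 h, the log2 fold changes of the 13 mRNAs were all below 0, from -1.16 to -0.58, with a median of -0.94, and 9 had an unadjusted p under 0.05. With the copies added, 12 of 13 had such a p and the median was -0.97. At 6 h the median was -0.69 as listed and -0.86 with the copies, again with 13 of 13 below 0. At 4 h the median was 0.01 and at 1 h -0.14. The median over the mitochondrial genes was -0.90 at 2.5 h, set beside -0.04 over all genes. For single genes, mt-Nd2 (complex I) had a log2 fold change of -1.16 ± 0.29 (SE) at 2.5 h and -1.08 ± 0.29 (SE) at 6 h, with edgeR adjusted p of 0.822 and 0.647. mt-Rnr2 had -1.69 ± 0.45 (SE) and -1.42 ± 0.44 (SE), with edgeR adjusted p of 0.822 and 0.749. Both time points rest on a single library each, whose spread is assumed to be that of the replicated times. DESeq2's shrunken log2 fold changes of the mitochondrial genes had medians of -0.48 at 2.5 h and -0.34 at 6 h, beside -0.001 and 0 over all genes. The mitochondrial genes varied together over the libraries, so counts of them with an unadjusted p, here and below, are not separate results. The share of all genes with such a p is not given.

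For late against early libraries of 0.5 Gy, 0.128% of 22588 genes were called, all of them higher late, and 0 of the 30 mitochondrial genes tested. DESeq2's Wald test called 0 mitochondrial genes as well, beside 157 higher and 43 lower of 46274 genes. Of the 30, 4 had an unadjusted p under 0.05 in edgeR. This number was 1 without the 2.5 h library, the 6 h library or replicate 2 of 0 h, 2 without replicate 1 of 0 h and 11 without replicate 2 of 4 h. The log2 fold changes were below 0 for 13 of 13 mRNAs, 2 of 2 rRNAs and 14 of 15 tRNAs, with a median of -0.35, beside -0.02 over all genes. Without replicate 2 of 4 h the median was -0.56, and without the 2.5 h library -0.23. The tRNA gene mt-Ti had the smallest adjusted p in edgeR, 0.440, at a log2 fold change of -1.25 ± 0.42 (SE). mt-Rnr2 had -0.85 ± 0.31 (SE, adjusted p = 0.463 in edgeR), mt-Nd2 -0.56 ± 0.22 (SE, adjusted p = 0.495) and mt-Nd4 -0.53 ± 0.23 (SE, adjusted p = 0.518). A p that misses the threshold does not show that levels did not differ. Without replicate 2 of 0 h, the value of mt-Rnr2 was -0.47. The copies changed single values: mt-Nd3 had a log2 fold change of -0.14 ± 0.30 (SE) as listed and -0.64 ± 0.24 (SE) with its copy, and mt-Atp6 -0.04 ± 0.27 and -0.32 ± 0.24 (SE).

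For 0.2 Gy, a fit of the 11 libraries of both doses at 0, 1, 4 and 6 h gave the change from the early (0 and 1 h) to the late (4 and 6 h) libraries. Here 0.0462% of 28162 genes were called, and 0 of the 34 mitochondrial genes tested, 4 of which had an unadjusted p under 0.05 (7 without the 6 h library of 0.5 Gy). DESeq2 called 0 of them as well, beside 73 higher and 79 lower of 47545 genes. The 13 mRNAs had log2 fold changes above 0, with a median of 0.45 as listed and 0.31 with the copies. As listed, mt-Nd3 had the highest, 1.70 ± 0.48 (SE). With the copies, no mRNA exceeded 0.48. mt-Co3 had 0.92 ± 0.29 (SE) as listed and 0.24 ± 0.28 (SE) with Gm28437. The difference between the doses in this change was tested in the same fit. In it 0.032% of all genes and 0 of the 34 mitochondrial genes were called, although 13 of 13 mRNAs had a more negative change at 0.5 Gy (median difference -0.68 as listed and -0.46 with the copies, smallest adjusted p 0.549 and 0.579 in edgeR). DESeq2 called 0 mitochondrial genes for this difference, beside 55 higher and 72 lower of 47545 genes. Of the 34 genes, 7 had an unadjusted p under 0.05 in edgeR. This number was 0 without the 0 h library of 0.2 Gy, 2 and 3 without its 6 h and 4 h libraries, and 12 without replicate 2 of 4 h at 0.5 Gy.

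The 22 tRNAs held 0.00876 to 0.0397% of the reads on genes. In every library, 14 of them had more than 3 reads, and the other 8 had 3 or fewer in at least 1 library, a count compatible with 0. mt-Tf, at position 1 of the chromosome, had 0 or 1 read throughout. The 8 tRNA genes on the minus strand held 84.1 to 95.8% of the tRNA reads, and mt-Ts1 (chrM:6870-6938) alone 55.2 to 80.8%. It is shown because it ends inside mt-Co1, which runs on the opposite strand, and capitals mark the 3 bases in this overlap. mt-Te (chrM:14071-14139), shown because it had the smallest adjusted p between the doses, lies between mt-Nd6 and mt-Cytb without overlap.
mt-Ts1: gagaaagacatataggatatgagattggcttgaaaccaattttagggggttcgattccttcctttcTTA
mt-Te: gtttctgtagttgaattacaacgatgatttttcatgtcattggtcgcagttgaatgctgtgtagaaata
The strand of the reads is not given in the sources used here. Reads of these tRNA genes and of RNA from the opposite strand of the same bases can therefore not be told apart.

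Several minus-strand tRNA genes were listed with more reads in most libraries of 0.2 Gy. mt-Te had 2.29 CPM in the lowest, 3.35 CPM in the median and 5.42 CPM in the highest of the 8 libraries of 0.5 Gy. At 0.2 Gy it had 6.69, 21.8, 15.2, 4.11 and 20.6 CPM in order of time, so that 4 of 5 libraries were above all of 0.5 Gy and the 4 h library was not. mt-Ts1 ranged from 59.9 to 154 CPM at 0.5 Gy, with a median of 90.5 CPM. At 0.2 Gy it had 166, 268, 184, 96.6 and 316 CPM, again with the 4 h library inside the range of 0.5 Gy. mt-Ty ranged from 1.87 to 4.21 CPM at 0.5 Gy (median 2.90 CPM) and had 4.02, 9.79, 11.03, 4.18 and 11.4 CPM at 0.2 Gy, above the range of 0.5 Gy in 3 of 5 libraries. mt-Tn had 4.04 to 11.6 CPM at 0.5 Gy (median 6.75 CPM) and 6.72, 12.3, 18.0, 20.2 and 10.7 CPM at 0.2 Gy. mt-Tc, between mt-Tn and mt-Ty on the chromosome, ranged from 7.73 to 20.03 CPM at 0.5 Gy (median 13.4 CPM). At 0.2 Gy it had 6.00, 13.2, 18.8, 27.5 and 13.5 CPM, above that range in 1 library. mt-Tl1, on the plus strand between mt-Rnr2 and mt-Nd1, had 2.69 to 6.70 CPM at 0.5 Gy and 4.42 to 7.27 CPM at 0.2 Gy.

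With time as a covariate, the fit of all 13 libraries gave log2 fold changes (0.2 Gy over 0.5 Gy) of 1.74 ± 0.40 (SE) for mt-Te, 1.237 ± 0.35 (SE) for mt-Ty and 1.09 ± 0.30 (SE) for mt-Ts1. None passed the adjusted threshold in edgeR (adjusted p = 0.224, 0.283 and 0.283). Of the 34 mitochondrial genes tested, 0 were called, as were 0.00351% of all 28493 genes, while 8 tRNAs had an unadjusted p under 0.05. Without 1 library, 4 to 12 mitochondrial genes had such a p, fewest without either 2.5 h library or the 6 h library of 0.2 Gy and most without the 0 h library of 0.2 Gy. All 8 minus-strand tRNA genes had log2 fold changes above 0 (median 1.02, 6 with an unadjusted p under 0.05). Of the 11 plus-strand tRNAs tested, 10 were above 0 as well (median 0.32, highest 1.37, 2 with an unadjusted p under 0.05). A positive value was thus not particular to the minus strand. The 13 mRNAs had a median of -0.07, and mt-Rnr1 and mt-Rnr2 had 0.29 ± 0.18 and 0.57 ± 0.30 (SE). DESeq2's Wald test gave adjusted p of 0.00116 for mt-Te, 0.0170 for mt-Ty and 0.0405 for mt-Ts1. It called mt-Te alone at a fold over 2, with a shrunken log2 fold change of 1.30, beside 0.171% of all genes called higher by that tool. As listed, mt-Co2 had a log2 fold change of 0.51 ± 0.33 (SE) at 0.2 Gy, and with Gm28661 added -0.09 ± 0.18 (SE). Dose and generation cannot be told apart in this comparison. It also includes the 0 h libraries, which the study's text takes as before irradiation. There mt-Te had 6.69 CPM in the library of 0.2 Gy and 3.11 and 5.42 CPM in those of 0.5 Gy. mt-Ts1 had 166 CPM against 91.9 and 135 CPM, and mt-Ty 4.02 CPM against 2.79 and 4.10 CPM. The difference at 0 h was not tested.

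**Figure D5:**
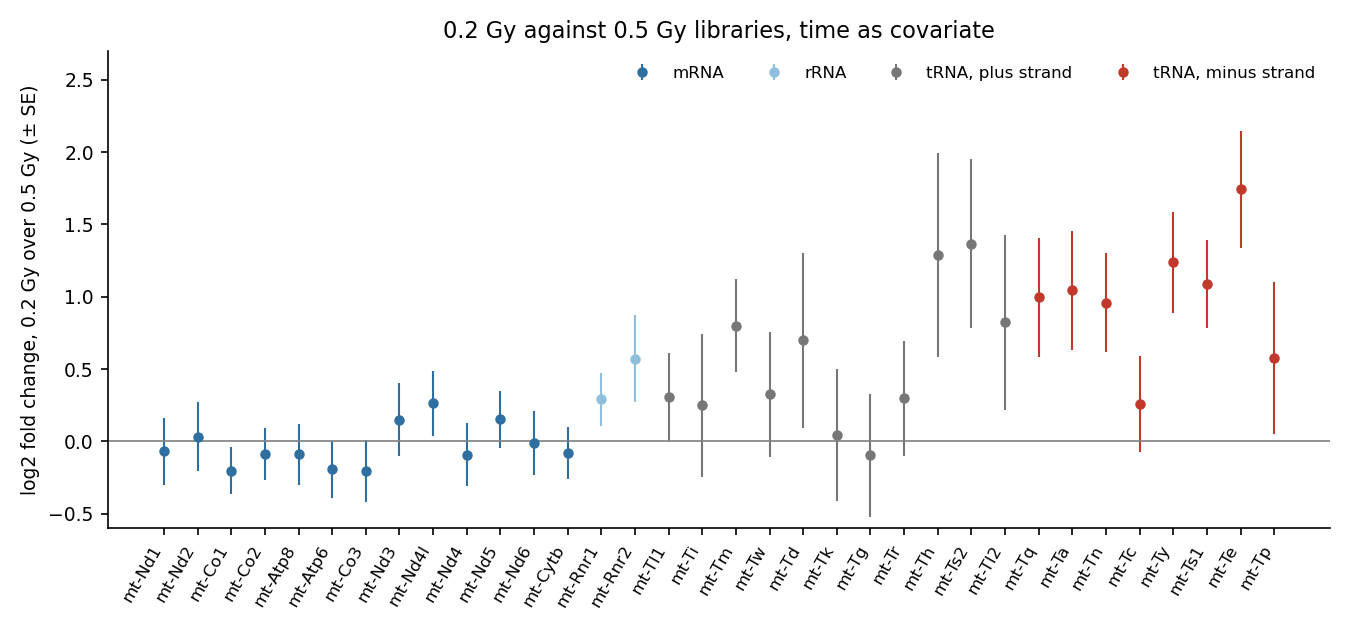
Log2 fold change of 0.2 Gy over 0.5 Gy libraries (points, with SE bars, vertical axis) for the 34 mitochondrial genes tested (horizontal axis), with time as a covariate and the copies added, in 4 classes. The mRNA points lie between -0.21 and 0.26, and the 8 minus-strand tRNAs between 0.26 and 1.74.

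Nuclear genes for mitochondrial transcription, RNA processing and DNA maintenance were read beside the mitochondrial genes. Of 40 such genes tested, 0 were called in any of the 8 comparisons with edgeR. Over all genes tested, at most 0.128% were called in any of them, so this count is not particular to the 40. At 2.5 h of 0.5 Gy, where all 15 mitochondrial mRNAs and rRNAs were below 0 h, 21 of these 40 had a log2 fold change above 0 and 19 below, with a median of 0.05. Polrmt, the mitochondrial RNA polymerase, had 7.99 to 21.7 CPM in the 8 libraries of 0.5 Gy and a log2 fold change of 0.15 ± 0.31 (SE) late against early. Tfam, which packs the mitochondrial chromosome and starts its transcription, had -0.17 ± 0.16 (SE). Lrpprc and Slirp, which together stabilize mitochondrial mRNAs, had -0.41 ± 0.29 and -0.42 ± 0.18 (SE), with adjusted p of 0.702 and 0.517 in edgeR.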

How the data were processed

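Oocyte RNA of 13 libraries was sequenced as 30 bp reads by the authors, stated as paired-end in the protocol and as single-end in the design. The authors quantified the reads with salmon on Ensembl transcripts of GRCm38 and deposited estimated counts and TPM per transcript, neither scaled between libraries nor filtered. Salmon divides reads that match several transcripts, and no genome alignment separates chromosome M from its nuclear copies. The deposited TPM depend on effective lengths, which are 10 bases for mt-Atp8 and 3 for the tRNAs, so mt-Atp8 alone took 34.8 to 62.7% of the mitochondrial TPM, and TPM served only as an alternative. Tables with the authors' own fold changes and p-values, and of pooled normalized values, were not used.

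Estimated counts were summed per gene (GENCODE vM21) and rounded. Shares refer to the reads on these genes. Transcripts with at least 50% of their 30-base stretches in mitochondrial genes were taken as copies, and their reads were divided among the mitochondrial genes by shared stretches where stated. Counts were tested with edgeR 4.0.16 (quasi-likelihood, TMM, filterByExpr, R 4.3.3), adjusted over all genes, with DESeq2 1.42.0 as an alternative. Single values were compared by exact permutation tests. Scripts were tested on simulated data. The libraries held 15709549 to 30430104 reads, and 3 reads are compatible with a count of 0. The genes named are all mRNAs and rRNAs, the 6 tRNAs with the most reads, called genes, the 4 copies with the most reads and 4 nuclear factors. mt-Ti, mt-Tf and the other 3 copies were named after their values were seen. Members and lists were chosen with earlier results of these data known.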

Additional observations from a re-analysis of the deposited data

How the results depend on the processing

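With edgeR, 0 mitochondrial genes were called in the comparisons under other scalings, without the filter, on the adjusted p alone, with the copies, or without any 1 library. DESeq2 called 1 gene (mt-Te) between the doses and 0 elsewhere. Over all genes, edgeR without the filter called 15 higher and 15 lower of 46404 at 1 h, and 62 and 18 at 4 h. Library totals alone moved the median log2 fold change of all genes to -0.19 for 0.2 Gy, 0.27 for the difference between the doses and 0.13 for 0.2 Gy against 0.5 Gy. The labels do not say what a generation was, and deviations of same-numbered libraries correlated across 28468 genes with r of 0.125, 0.0763 and 0.108, so the numbers were not taken as pairs. With the replicate block (generation), 0 mitochondrial genes were called, also with the numbers crossed at 1 and 4 h. Of all genes, it called 0, 1, 6 and 7 at 1, 2.5, 4 and 6 h, and 18 late against early in place of 29. Mitochondrial genes with an unadjusted p under 0.05 rose in number from 12 to 17 at 2.5 h and from 9 to 16 at 6 h. The block gave a late minus early share of -1.06 percentage points (exact permutation test, p = 0.267). The smallest possible p of that test was 0.0667, so it could not pass 0.05.

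Some small differences, none past the threshold, changed sign, and the cause was not tested. The late minus early share within dose was -0.224 with the copies and -0.00526 for the mRNAs with the copies. For all mitochondrial genes this share ranged from -0.603 to 0.324 when 1 library was left out. The share of 0.2 Gy minus 0.5 Gy was -0.0552 for the mRNAs, -0.0392 without the rRNAs and -0.443 for the mRNAs with the copies. For all mitochondrial genes it ranged from -0.204 to 0.944 when 1 library was left out. On TPM, the late minus early difference was 0.231 for complex I, 0.0666 for complex III and -2.06 for complex V. For complex V it was -0.117 with the copies (-0.362 to 0.985 when 1 library was left out). The late minus early log2 fold change of mt-Atp6 was 0.012 with library totals alone and 0.017 without the filter (-0.51 to 0.15 when 1 library was left out). When 1 library was left out, it ranged from -0.35 to 0.081 for mt-Co1, -0.81 to 0.22 for mt-Nd3 and -0.42 to 0.10 for mt-Ts1. Between the doses, mt-Co2 was -0.086 with the copies (-0.29 to 0.79 when 1 library was left out) and mt-Tc -0.030 to 0.64. Without the libraries of 2.5 h or 6 h of 0.5 Gy, the late minus early share was -0.917 or -1.11, and without replicate 2 of 0 h -0.807.

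Ranges without 1 library include those with the copies added, which were chosen after seeing the data. At 0.5 Gy the 2.5 h and 6 h time points, and at 0.2 Gy all time points, had 1 library each. At this depth, 8 of the 22 tRNAs had 3 or fewer reads in at least 1 library.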
